A study of Rattus norvegicus with 14 samples.

Results

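A set of 10 genes for chemokines, cytokines and related products that NF-κB is known to switch on was followed in rat colonocytes, the epithelial cells lining the colon. The genes were chosen by name as Cxcl1, Ccl20, Cxcl16, Tnf, Il6, Il18, Il1b, Tnfaip3, Icam1 and Birc3. Of these 10 genes, 9 were present by symbol among the 26276 gene names of the array, with 10 probes in all, and Tnfaip3 was not. Male Wistar rats, 5 to 6 weeks old on arrival, received for 15 days a normal-protein diet (NPD) that supplied 14% of energy from protein, or an isocaloric high-protein diet (HPD) that supplied 55%, both with whole milk protein. Colonocytes were detached from the flushed colon with EDTA, and total RNA of each rat was hybridised to a 1-colour Agilent array, with 7 NPD and 7 HPD arrays. The comparison of the diets asks whether a high protein intake altered these transcripts in the epithelium.

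NF-κB is a family of dimeric transcription factors that inhibitor proteins hold in the cytoplasm. Bacterial products and cytokines such as TNF and interleukin-1 activate a kinase complex that marks the inhibitors for degradation, after which the dimers enter the nucleus and bind κB sites near their target genes. In the colon this route links contact with bacteria to the release of chemokines that draw neutrophils and lymphocytes, to adhesion molecules and to survival factors. Some of the targets, Tnfaip3 among them, in turn restrain the route.

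The letters of the κB consensus were looked for in the promoters of these genes. RefSeq promoters (GRCr8, 250 bases before to 50 after the start, 300 bases each) were held for 9 of the 10 genes, all but Birc3. A match to the 10-base κB consensus on either strand lay in 4 of these 9 promoters, those of Ccl20, Cxcl1, Il6 and Tnfaip3, and in 2087 of all 27457 promoters (7.6%). The 100 bases before the start are printed 5′ to 3′ for the 4 genes with a consensus match, which stands in capitals, because NF-κB dimers are known to bind this kind of element.
Ccl20, chr9:91837059-91837158, plus strand: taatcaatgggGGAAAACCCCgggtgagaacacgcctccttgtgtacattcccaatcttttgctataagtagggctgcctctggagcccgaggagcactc
Cxcl1, chr14:17479322-17479421, minus strand: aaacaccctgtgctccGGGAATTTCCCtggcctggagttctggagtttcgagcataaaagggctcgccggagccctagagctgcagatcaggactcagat
Il6, chr4:5894576-5894675, minus strand: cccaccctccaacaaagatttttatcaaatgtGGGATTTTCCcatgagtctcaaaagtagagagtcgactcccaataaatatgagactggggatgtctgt
Tnfaip3, chr1:15543980-15544079, minus strand: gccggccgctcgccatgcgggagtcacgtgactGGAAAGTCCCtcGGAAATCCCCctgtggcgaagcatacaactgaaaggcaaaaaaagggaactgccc
The match began 89 bases before the start in Ccl20, 84 in Cxcl1 and 68 in Il6. Cxcl1 had matches on both strands that overlap and form 1 run of capitals. Tnfaip3 held matches at 67 and 55 bases before the start, and a further one at 170 that lies outside the printed stretch. A match describes the letters only, and no binding was measured.

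Signal was taken as the background-subtracted brightness of a probe, on the log2 scale relative to the median of its array, so that a value of 0 is the array median. Differences are HPD minus NPD on that log2 scale, and a gene was called when limma gave any of its probes a Benjamini-Hochberg q-value below 0.1 over all 30367 probes. Where a gene had several probes, the brightest stood for it. The p-values measure the spread between rats, 1 array per rat, and 7 rats in a group set their precision.

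limma called 0 of the 9 genes at that q-value, against 0.0609% of all genes on the array. At an unadjusted p under 0.05, Tnf and Icam1 were lower in the HPD group and 0 were higher, while 5.48% of all genes were lower and 6.05% higher at that level. Lower means in the HPD group were found for 5 of the 9 (Tnf, Icam1, Ccl20, Birc3 and Il1b), against 35% of all genes, and the median difference over the 9 was -0.34, against 0.11 over all genes. These counts hold Il6, which no array measured well above background, and 8 of the 9 genes were measured on at least 1 array. Among the 15289 genes well above background on all 14 arrays, 40.8% were lower in the HPD group, and 7.94% were lower with an unadjusted p under 0.05. For 0 of the 9 genes did the values of the groups separate without overlap, against 0.282% of all genes. The median over all genes itself moved with the scaling, to 0.00067 over all probes after cyclic loess between arrays. Set against the median of all genes, the difference was -0.64 for Tnf, -0.56 for Icam1, -0.49 for Ccl20 and -0.48 for Birc3, and 0.0088 for Il18.

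**Figure D1:**
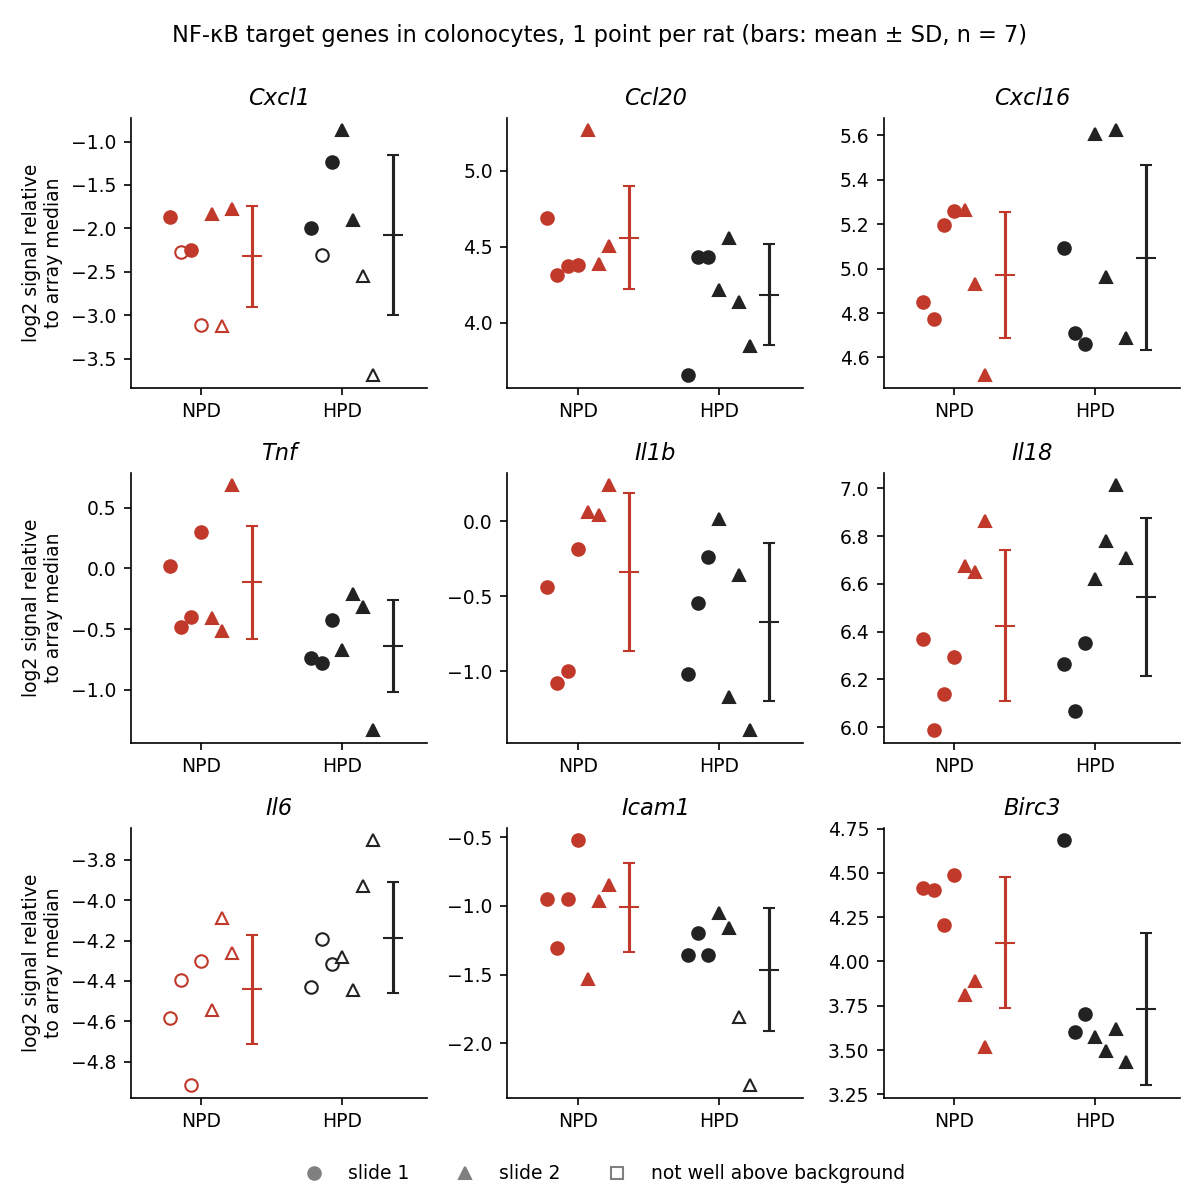
Level of each NF-κB target gene in each rat, as log2 signal relative to the array median (vertical axis, its range differs between panels), for 7 NPD rats (red) and 7 HPD rats (black). Circles are arrays of slide 1 and triangles of slide 2, open symbols were not well above background, and bars give the mean ± SD. The HPD values of Tnf and Icam1 all lie below the NPD mean, while Il18 separates by slide in both diets.

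The NPD arrays had 19631 to 20967 probes well above background, and the HPD arrays had 18835 to 20374. HPD replicate 7 had the 18835 and also the lowest array median, 89.4. It was the lowest rat for Tnf, Icam1, Il1b, Birc3 and Cxcl1, but not for the other genes of the set. The array median of the signal was 149 ± 22.4 (SD, n = 7) in the NPD and 111 ± 13.0 (SD, n = 7) in the HPD group (p = 0.0041 by an exact two-sided permutation test), and its part in any difference of a single gene was not tested. There were 2 slides, and the arrays of a slide were scanned together. Slide 1 carried 4 NPD and 3 HPD arrays, and slide 2 carried 3 NPD and 4 HPD arrays. Of the 11 genes listed as markers of colonic epithelium, all were well above background on all 14 arrays. Of the 16 leukocyte markers 9 were, and the B cell marker Ms4a1 was so on 1 array and the T cell marker Cd3e on 3. Since the RNA came from a cell preparation, fewer cells of a type and less RNA per cell cannot be told apart.

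Among the chemokines, Ccl20 had a lower mean in the HPD group with both of its probes. CCL20 attracts dendritic cells and lymphocytes that carry the receptor CCR6, and colonic epithelium is a known source of it. The brighter Ccl20 probe (rn4, chr9:82443354-82443413, plus strand) had a lowest, median and highest value of 4.32, 4.38 and 5.27 in the NPD group, and of 3.65, 4.22 and 4.56 in the HPD group. Between the groups, 4 of the 7 HPD rats lay below the lowest NPD rat and 2 NPD rats lay above the highest HPD rat, with the others intermixed. The means were 4.56 ± 0.34 (SD, n = 7) for the NPD and 4.18 ± 0.33 (SD, n = 7) for the HPD. The difference of -0.38 (SE 0.18, 95% confidence interval -0.76 to 0.0026) corresponded to 77.0% of the NPD level and was not called (limma, q = 0.439). An exact two-sided permutation test gave p = 0.0524 over all splits and 0.0433 when arrays were exchanged only within their slide. The second probe shares 53 of its 60 bases with the first, being shifted by 7 bases, so both read nearly the same stretch, and it gave -0.41 (SE 0.18, limma q = 0.430).

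Ccl20 was the only one of the 9 genes to pass the threshold under any of 34 other settings. This happened in the normalized table that the authors deposited when slide was added as a block, a setting chosen with earlier results of these data known, where the difference was -0.51 and limma gave q = 0.0953. That fit called 10.5% of all its genes, and 6.5% as lower. Without the block, the deposited table gave a Ccl20 difference of -0.51 (limma, q = 0.168). It was -0.46 with the mean or median pixel signal and -0.37 after normexp background correction. With normexp background correction and slide as a block, added after seeing the data, 2.63% of all genes were called, 1.21% as lower, and 0 of the 9. In NPD replicate 5, the highest rat of all, both probes stood apart from the other NPD rats, and without it the difference was -0.26 (limma, q = 0.437).

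Cxcl16 and Cxcl1, the remaining chemokines, showed no difference that the arrays could resolve. CXCL16 is a chemokine that is made as a membrane protein and shed by proteases, and its receptor is CXCR6. Its probe (rn4, chr10:57296159-57296218, minus strand) ranged from 4.52 to 5.26 with a median of 4.93 in the NPD group and from 4.66 to 5.63 with a median of 4.96 in the HPD group. The HPD values covered nearly the whole NPD range, and HPD replicates 4 and 6 lay above all NPD rats. The difference of 0.079 (SE 0.19, limma q = 0.838) had a 95% confidence interval from -0.32 to 0.48, and its sign turned without either of those rats.

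CXCL1 draws neutrophils through CXCR2. Its probe (rn4, chr14:18690468-18690527, minus strand, 10 spots) was well above background on 4 of 7 NPD and 4 of 7 HPD arrays. Values ran from -3.12 to -1.78 (median -2.25) in the NPD group and from -3.69 to -0.86 in the HPD group, where HPD replicate 1 was the middle rat. The HPD group held both the highest and the lowest rat. The difference was 0.24 (SE 0.38, limma q = 0.752), with an interval from -0.56 to 1.05, which spans both directions.

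**Figure D2:**
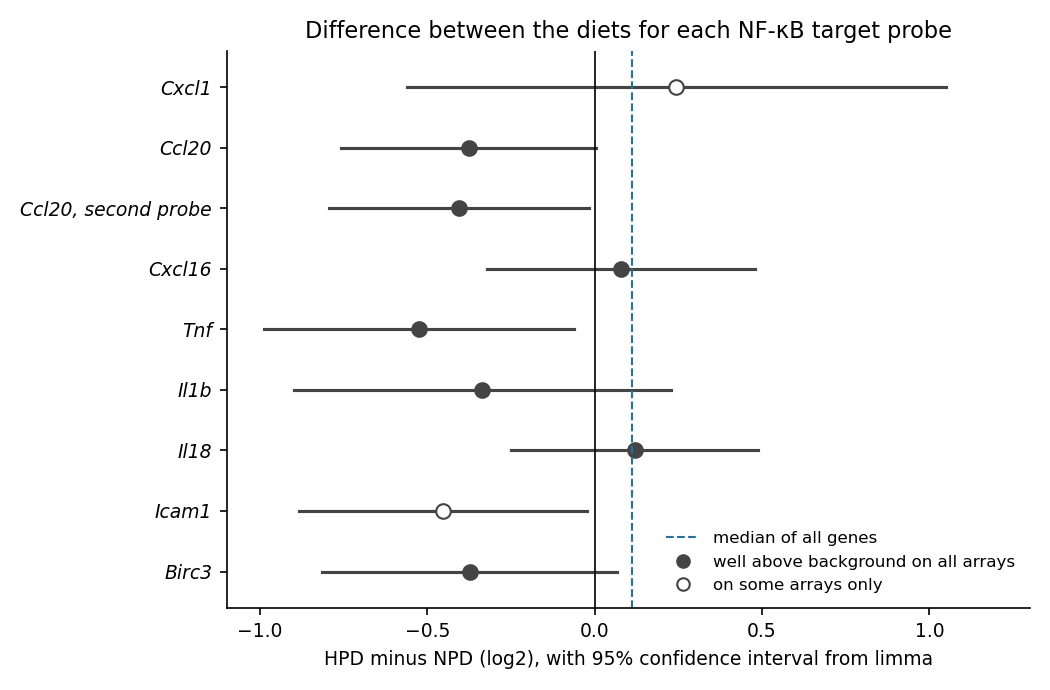
Difference between the diets (HPD minus NPD, log2, horizontal axis) for each probe of the 8 genes with a signal above background, with limma's 95% confidence interval. Filled points were well above background on all 14 arrays, open points on some only, and the dashed line is the median of all genes (0.11). The intervals of Tnf, Icam1 and the second Ccl20 probe lie below 0.

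Of the cytokines, Tnf had the lowest unadjusted p. TNF is a proinflammatory cytokine that both activates NF-κB through its receptors and is produced under its control, mainly by macrophages and lymphocytes. Its probe (rn4, chr20:3663558-3663617, plus strand) had a lowest, median and highest value of -0.51, -0.40 and 0.69 in the NPD group, and of -1.33, -0.67 and -0.21 in the HPD group. All 7 HPD rats lay below the NPD mean and 4 below the lowest NPD rat, while 3 NPD rats lay above every HPD rat. The mean went from -0.11 ± 0.47 (SD, n = 7) to -0.64 ± 0.38 (SD, n = 7). The difference of -0.53 (SE 0.22, 95% confidence interval -0.99 to -0.063), or 69.5% of the NPD level, had an unadjusted p of 0.0286 but was not called (limma, q = 0.418). The exact two-sided permutation test gave p = 0.0350, and 0.0465 within slides. On slide 1 the difference was -0.51 and on slide 2 it was -0.56. It was smaller with the mean (-0.30) or median (-0.32) pixel signal, in the deposited table (-0.36) and after normexp (-0.24). The SE was smaller there too, from 0.11 to 0.14. limma gave unadjusted p from 0.017 to 0.041 and q from 0.171 to 0.391 in these settings. Without HPD replicate 7, the lowest rat, the difference was -0.41 (limma, unadjusted p = 0.0647). Without NPD replicate 7, the highest, it was -0.39 (limma, unadjusted p = 0.0645). The unadjusted p stayed under 0.05 in 11 of the 14 fits that leave out 1 array.

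The summed level of the 16 leukocyte markers, in multiples of the array median, ran from 102 to 143 in the NPD rats and from 83.7 to 113 in the HPD rats (exact two-sided permutation test, p = 0.0554). A sum weighs bright genes most, and Cd14 was the brightest of the 16, with means of 6.16 (NPD) and 6.07 (HPD). Of these markers 11 had a lower and 5 a higher mean in the HPD group, and limma called 0. At an unadjusted p under 0.05, Lyz2, a lysozyme of myeloid cells, was lower (-0.56) and the integrin Itgam higher (0.34). The part of these cells in the difference of Tnf was not tested.

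Il1b encodes interleukin-1β, a cytokine that is released after cleavage by caspase-1 and activates NF-κB in its target cells. Its probe (rn4, chr3:116964465-116964524, minus strand, 10 spots) ran from -1.08 to 0.24 (median -0.19) in the NPD group and from -1.39 to 0.02 (median -0.54) in the HPD group. Of the HPD rats 5 lay below the NPD mean, and 3 NPD rats lay above every HPD rat. The difference of -0.34 (SE 0.26, limma q = 0.541) did not hold on both slides. On slide 1 it was 0.077 and on slide 2 it was -0.84 (limma within slide 2, unadjusted p = 0.0404, q = 0.868). Single slides were fitted after seeing the data. On slide 2 the lowest NPD array (0.040) and the highest HPD array (0.015) lay close together. Whether the slides differ in this difference was not tested. Over all arrays it was -0.14 with either pixel signal and after normexp, and -0.17 in the deposited table.

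Il18 encodes interleukin-18, a cytokine of the interleukin-1 family that epithelial cells hold as a precursor. Its probe lies in the coding sequence (rn4, chr8:53943005-53943064, plus strand), and it is shown because the level it reads followed the slide more closely than the diet.
Il18 probe: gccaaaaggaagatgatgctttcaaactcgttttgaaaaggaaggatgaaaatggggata
Values ran from 5.99 to 6.86 (median 6.37) in the NPD group and from 6.07 to 7.02 (median 6.62) in the HPD group. On slide 1 the means were 6.20 ± 0.17 (SD, n = 4) for the NPD and 6.23 ± 0.15 (SD, n = 3) for the HPD, and on slide 2 they were 6.73 ± 0.12 (SD, n = 3) and 6.78 ± 0.17 (SD, n = 4). Every array of slide 2 lay above every array of slide 1. With diet in the fit, slide 2 exceeded slide 1 by 0.54 (SE 0.095, limma q = 0.00168), and slide was called for 40.1% of all probes. The diets differed by 0.12 (SE 0.17, 95% confidence interval -0.25 to 0.49, limma q = 0.735), and by 0.042 with slide as a block.

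Il6 encodes interleukin-6, a cytokine of the acute phase. Its probe (10 spots) was not well above background on any of the 14 arrays, with a highest signal of 4.64 units. No difference is given for it, and a change in Il6 was not detectable with these arrays.

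**Figure D3:**
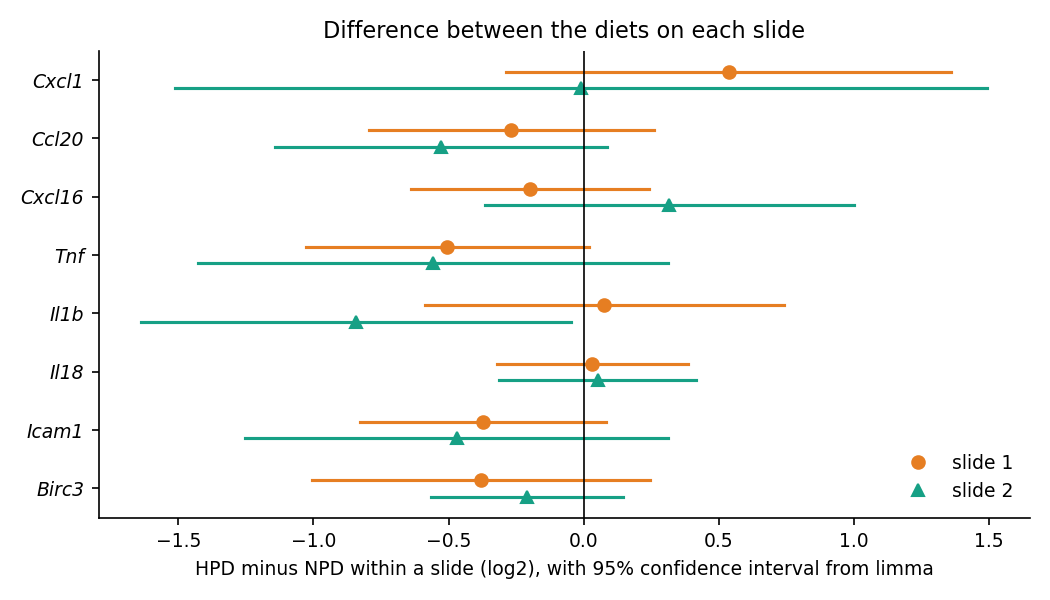
Difference between the diets within each slide (HPD minus NPD, log2, horizontal axis) with limma's 95% confidence interval, for slide 1 (circles, 4 NPD and 3 HPD arrays) and slide 2 (triangles, 3 NPD and 4 HPD arrays). Tnf, Ccl20, Icam1 and Birc3 are below 0 on both slides, and Cxcl1, Cxcl16 and Il1b lie on opposite sides of 0.

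Icam1, the gene of an adhesion molecule that binds leukocyte integrins, was the other gene with an unadjusted p under 0.05. Its probe (rn4, chr8:20051730-20051789, plus strand, 10 spots) was well above background on 7 of 7 NPD arrays and 5 of 7 HPD arrays. The lowest, median and highest values were -1.53, -0.95 and -0.52 in the NPD group, and -2.31, -1.36 and -1.05 in the HPD group. All 7 HPD rats lay below the NPD mean, and 5 NPD rats lay above every HPD rat. The means were -1.01 ± 0.33 (SD, n = 7) and -1.46 ± 0.44 (SD, n = 7). The difference was -0.45 (SE 0.20, 95% confidence interval -0.88 to -0.023), or 73.0% of the NPD level, and was not called (limma, q = 0.429). The exact two-sided permutation test gave p = 0.0437, and 0.0694 within slides. With pixel signals that keep the background the difference shrank to -0.11 (mean) and -0.10 (median), and it was -0.15 in the deposited table. Without HPD replicate 7, the lowest rat, it was -0.31 (limma, unadjusted p = 0.0848). The unadjusted p stayed under 0.05 in 7 of the 14 fits that leave out 1 array.

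The summed level of the 4 endothelial markers was 10.1 to 12.6 (median 11.0) in the NPD group and 10.8 to 14.3 (median 12.4) in the HPD group (exact two-sided permutation test, p = 0.0338). Of these markers 2 had a higher mean in the HPD group (Vwf 0.21 and Cdh5 0.40) and 2 a lower one (Pecam1 -0.25 and Kdr -0.50). The list median was -0.018, and 0 had an unadjusted p under 0.05 in limma. A sum weighs bright genes most, and Vwf was the brightest of the 4, with means of 2.59 (NPD) and 2.80 (HPD). Vwf alone gave p = 0.0338 by the same permutation test. The summed level of the 9 stromal and muscle markers was 12.4 to 27.2 (median 16.6) and 11.3 to 20.5 (median 14.9, exact two-sided permutation test, p = 0.369), with Dcn and Pdgfra not well above background on any array. Of these 9 markers 4 had a lower and 5 a higher mean in the HPD group. At an unadjusted p under 0.05, the collagen genes Col1a1 (0.35) and Col3a1 (0.61, well above background on 1 array) were higher and Myh11, a smooth muscle myosin, was lower (-0.48). The part of these cells in the difference of Icam1 was not tested.

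Birc3 encodes cIAP2, a ubiquitin ligase that protects cells from death after TNF signalling and carries the signal towards NF-κB. Its probe lies in the coding sequence (rn4, chr8:4682606-4682665, minus strand), and it is shown because 1 rat of the HPD group stood far above the other 6.
Birc3 probe: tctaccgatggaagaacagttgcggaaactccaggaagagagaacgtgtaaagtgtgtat
Values ran from 3.52 to 4.49 in the NPD group, 4 of them above 4 on slide 1 and 3 below 4 on slide 2, and from 3.43 to 4.69 (median 3.60) in the HPD group. The highest rat of all was HPD replicate 1, and the other 6 HPD rats lay between 3.43 and 3.70, below the NPD mean. The difference was -0.37 (SE 0.21, 95% confidence interval -0.82 to 0.068, limma q = 0.473), with an exact two-sided permutation p = 0.109. Without HPD replicate 1 it was -0.53 (limma, unadjusted p = 0.0049, q = 0.131), and without any other single rat it lay between -0.47 and -0.31. The difference was -0.38 on slide 1, -0.21 on slide 2 and -0.30 with slide as a block. It was -0.45 with either pixel signal, -0.49 in the deposited table and -0.35 after normexp. Slide 2 lay below slide 1 by a difference of -0.55 (SE 0.15, limma q = 0.0138), opposite in sign to that of Il18.

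Tnfaip3 encodes A20, an enzyme that edits ubiquitin chains and shuts NF-κB signalling down. By symbol it was not on the array. The probe named LOC683206 carries the Entrez identifier that RefSeq now gives to Tnfaip3, and it is reported beside the set without being counted. It was well above background on 7 of 7 NPD and 6 of 7 HPD arrays, with medians of -1.38 and -1.45, and the difference was -0.17 (SE 0.13, limma q = 0.543).

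The other genes of the pathway were read from 5 lists of 94 genes, of which 86 were on the array. limma called 0 of the 86, and at an unadjusted p under 0.05 there were 9 lower and 3 higher ones, 12 in all, against 5.48% of all genes lower, 6.05% higher and 11.5% in all. Of the 14 subunits, inhibitors and kinases on the array 3 were lower and 0 higher at that level, with a list median of -0.13. Nfkb1, the gene of the p105 and p50 subunit, gave -0.43 (SE 0.15, limma q = 0.417) and Nfkbie, the gene of the inhibitor IκBε, gave -0.38 (SE 0.13, limma q = 0.417). Of the 14 adaptors and ubiquitin enzymes 3 were lower and 0 higher, with a median of -0.12. All 14 of these and 13 of the 14 subunits, inhibitors and kinases were well above background on all 14 arrays. Among all genes measured so, 7.94% were lower at that level and the median difference was 0.064. Traf6, the ubiquitin ligase that relays signals of the interleukin-1 receptor, gave -0.64 (SE 0.15, unadjusted p = 8.6e-04, limma q = 0.417), and Traf2, an adaptor of TNF receptors that binds the Birc3 product, gave -0.31 (SE 0.12).

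**Figure D4:**
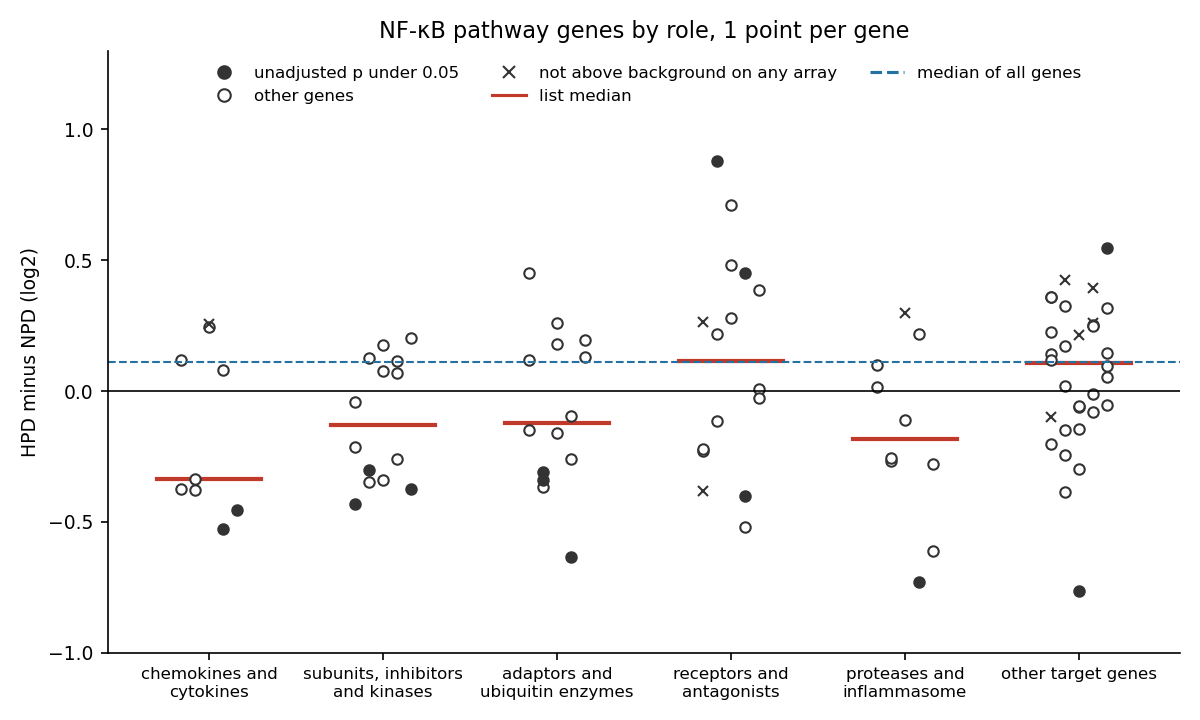
Difference between the diets (HPD minus NPD, log2, vertical axis) of each gene on the array, by list, with 1 point per gene and its brightest probe. Filled points have an unadjusted p under 0.05, crosses were not well above background on any array, red bars are list medians and the dashed line is the median of all genes (0.11). The median is -0.34 for the chemokines and cytokines, -0.13 for subunits, inhibitors and kinases, and 0.11 for the other targets.

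Receptors and antagonists of the cytokines did not share 1 direction. Of these 16 genes 1 was lower and 2 higher at an unadjusted p under 0.05, with a median of 0.11. Only 8 of the 16 were well above background on all 14 arrays and 2 were on none, so the median rests in part on dim probes. Il1rap, the co-receptor of interleukin-1, gave 0.45 (SE 0.16, limma q = 0.417) with its brightest probe and 0.13 and -0.0059 with its other probes. Cxcr2, the receptor of CXCL1, was well above background on 0 NPD and 2 HPD arrays. It is 1 of the 2 counted as higher, but its HPD median of -3.69 lay below the mean over the NPD arrays of the lowest signal well above background (-3.44), so no fold is given for it. Of the 10 proteases and inflammasome genes 1 was lower and 0 higher, with a median of -0.18. That gene was Nlrp6, a sensor protein of intestinal epithelium, with -0.73 (SE 0.20, unadjusted p = 0.0026, limma q = 0.417), which was below the NPD mean in 6 of 7 HPD rats. Casp4, an inflammatory caspase, gave 0.22 (SE 0.11, limma q = 0.441).

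The 32 other NF-κB targets on the array had a median of 0.11, equal to that of all genes at this rounding, with 1 lower and 1 higher at an unadjusted p under 0.05. Of these 32 genes, 20 were well above background on all 14 arrays and 5 on none. Nos2, the inducible nitric oxide synthase, was higher in 7 of 7 HPD rats than the NPD mean, with 0.55 (SE 0.15, unadjusted p = 0.0030, limma q = 0.417). Cxcl3, a relative of Cxcl1, gave -0.76 (SE 0.33, limma q = 0.425) with a probe that was well above background on 4 NPD arrays and 1 HPD array, so that 6 HPD values are not well above it, and 0.11 with its other probe. It is the 1 counted as lower. When slide was a block, the deposited table gave calls for 11 of the 86 pathway genes, 8 lower and 3 higher. The same fit called 10.5% of all genes, 6.5% as lower, and nothing particular to the pathway is read from this count. The lower ones were Rela, Nfkb1, Nfkb2, Nfkbie, Traf2, Traf6, Ripk1 and Nlrp6, and the higher ones Il18rap, Nos2 and Sele. Il18rap and Sele were not well above background on any array, so no change is read from their calls.

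**Figure D5:**
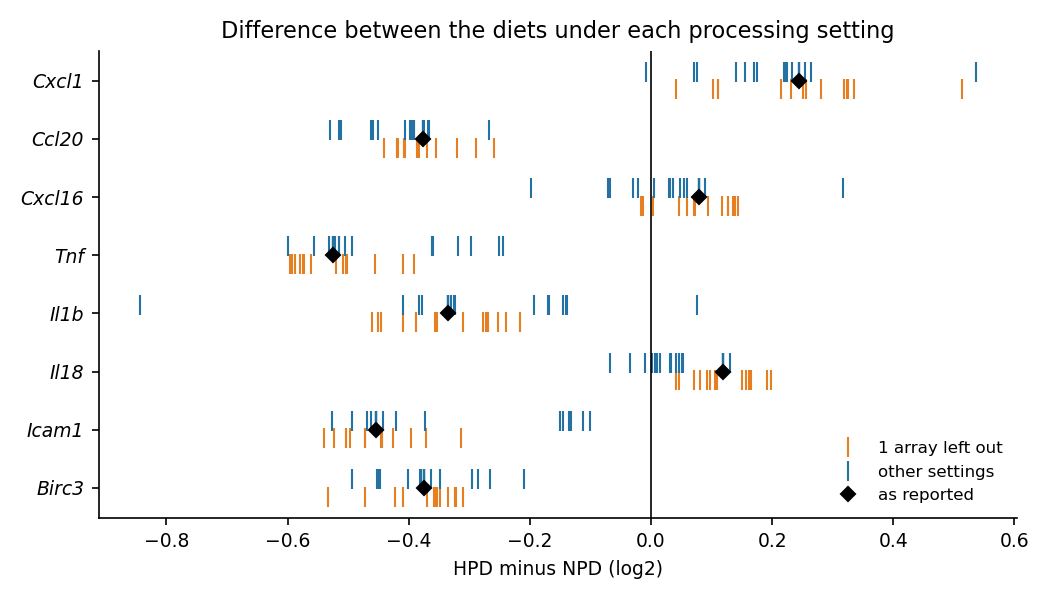
Difference between the diets (HPD minus NPD, log2, horizontal axis) of each of the 8 measured genes under each processing setting, with the reported value as a diamond, fits without 1 array in orange and other settings in blue. Tnf, Ccl20, Icam1 and Birc3 stay below 0 in all 34 settings, and Cxcl16 crosses 0 in 7. Some settings cannot move the difference and repeat the reported value.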

How the data were processed

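Scanner output of every array (Agilent Feature Extraction 10.7.3.1) was deposited by the authors and gives spot intensity on a linear scale. The authors also deposited normalized log2 values by gene name (26414 rows). Probe coordinates are those of the array design on rn4. Control and outlier-marked spots were dropped, log2 processed signals were averaged over the spots of a probe, and arrays were then centred on their median, since the signal column and centring statistic are not given in the sources used here. Diet was the only term of the limma 3.58.1 fit (R 4.3.3, lmFit, eBayes, no filter on signal). Single genes were also compared by exact permutation over all 3432 splits of the arrays and over 1225 regroupings within slides. The genes and lists were chosen with earlier results of these data known.

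The genes named are the 10 members; from each pathway list (NF-κB subunits, inhibitors and kinases, adaptors and ubiquitin enzymes, receptors and antagonists, proteases and inflammasome genes, other targets) those called or else the 2 with the smallest p; and the 2 genes most alike each member. Of the marker lists, Lyz2, Itgam, Cd3e, Ms4a1, Cd14, Dcn, Pdgfra, Col1a1, Col3a1, Myh11 and the endothelial genes were named after their values were seen. So were Rela, Nfkb2, Ripk1, Il18rap and Sele. Alternatives changed the signal (mean or median pixels, normexp with offset 50), the scaling (centring at the 75th percentile or at the mean, quantile, cyclic loess), the filter (probes well above background), the model (slide block, replicate block, eBayes trend), the source (the deposited values, alone or with a slide block), the q threshold (0.05), the handling of several probes, and the arrays kept, each left out in turn. Cyclic loess or normexp with a slide block and single slides were added after seeing the data. Samples removed by the authors were not analysed here. Figures were drawn with matplotlib 3.10.9.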

Additional observations from a re-analysis of the deposited data

Results flagged for a closer look

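Within each diet group, rats whose value stood apart from the rest were sought for the 11 probes, which made 22 groups of 7, and 3 were found. Chance marks about 1 in 20 groups. The Ccl20 probes gave the first, both in NPD replicate 5, at 5.27 (next highest NPD rat 4.69) and at 4.78 (next highest 4.11), and since the probes overlap they are 1 observation. The other was Birc3 in HPD replicate 1, at 4.69, with the next highest HPD rat at 3.70.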

How the results depend on the processing

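Tnf, Ccl20, Icam1 and Birc3 kept their lower values in the HPD group in all of the 34 other settings. Some of these settings could not move the difference and repeat its value. They are the filter, the replicate block, the eBayes trend and the q threshold. For genes with 1 probe, the handling of several probes is also among them. The number of the 9 genes called stayed at 0 except with the deposited values and a slide block, where it was 1. That of pathway genes called was 11 there, 3 with normexp and a slide block, and 0 to 3 in the fits that leave out 1 array, where the 3 came without HPD replicate 1. Calls over all genes rose in the same fits, from 16 to 2767, 691 and 147. The sign turned for Cxcl1 on slide 2 alone (-0.0089), for Il1b on slide 1 alone (0.077), and for Il18 with the deposited values (-0.034, and -0.068 with a slide block) and with normexp and a slide block (-0.0099). It turned for Cxcl16 with the mean (-0.022) and the median pixel signal (-0.029), with the deposited values (-0.071, and -0.067 with a slide block), without HPD replicate 4 (-0.014) or 6 (-0.017), where the fits that leave out 1 array ran from -0.017 to 0.14, and on slide 1 alone (-0.20). The cause was not tested. The filter on dim probes left no value for Cxcl1. Leaving out HPD replicate 7 moved Cxcl1 to 0.51 and HPD replicate 4 to 0.042. For arrays of the same replicate number, the deviations from the diet means correlated from -0.16 to 0.67 over 17432 probes. The correlation was above 0.1 in 6 of 7 pairs, and the pair below it (number 4) is the 1 whose arrays lie on different slides. Slide was not removed from these deviations, so arrays on the same slide share its effect. In 1 of the 7 pairs the arrays matched best with their own number. The numbers were not treated as pairing the rats, as the labels do not say so and 1 pair falls below 0.1. With the replicate block 7 of all genes, 0 of the 9 genes and 0 pathway genes were called. Cxcl1 was well above background on 8 and Icam1 on 12 of the 14 arrays.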

Other observations

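The genes whose level varied most like each of the 6 genes measured on all 14 arrays were sought among 10257 others, after subtracting the diet means. The points share arrays and slides, so the correlations describe these arrays only. Birc3 varied most like Cdhr2, a cadherin of the brush border (Pearson's r = 0.98 over 14 arrays), and Stk17b, a kinase (r = 0.96). Il18 varied most like Smad7, an inhibitor of TGF-β signalling, and Hspa4l, a chaperone (r = 0.96 each). Ccl20 varied most like Npff (r = 0.88) and Zmynd17 (r = 0.87), Cxcl16 like Prkcd (r = 0.84) and Phlpp2 (r = 0.81), Il1b like Nmb (r = 0.81) and Ankrd61 (r = 0.79), and Tnf like Pde7a and Hoxb13 (r = 0.78 each). Among the 6 genes themselves, r ran from -0.63 for Il18 with Birc3 to 0.45 for Tnf with Il1b.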
